A study of Homo sapiens with 12 samples.

Results

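The 66 genes described here are the replication-dependent histone genes of the deposited count table, out of 61209 gene names in all. They were selected on their gene names alone, as the rows named for the H1-1 to H1-6 linker histone genes and for the numbered H2AC, H2BC, H3C and H4C genes. No measured value enters that rule, but the family was chosen with earlier results of these data known. RNA was sequenced in 12 libraries of A375, an established human melanoma cell line, in 4 groups of 3. Glucose was either present or withheld for 5 h, both in control cells and in cells depleted of OGDH. OGDH codes for a subunit of 2-oxoglutarate dehydrogenase, an enzyme complex of the tricarboxylic acid cycle. The titles call the depleted cells KO while the series text speaks of a knockdown, and "OGDH-depleted" is used for both. How the depletion was made, and whether the cells are 1 clone, is not given in the sources used here. No label tells whether a group's 3 libraries are separate cultures, so the p-values rest on the spread among these libraries alone, and that spread may be technical.

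Replication-dependent histone genes supply the proteins on which new DNA is wrapped during S phase. H2A, H2B, H3 and H4 form the nucleosome core, H2A pairing with H2B and H3 with H4, and the H1 linker histones bind the DNA between nucleosomes. Their mRNAs are the main class of animal mRNA that ends without a poly-A tail. The pre-mRNA is cut just after a conserved stem-loop that the stem-loop-binding protein SLBP holds, and the mRNA is degraded quickly when DNA synthesis stops. Some of these genes can also make longer, polyadenylated mRNA from a site further downstream. Whether the libraries were poly-A selected or depleted of ribosomal RNA is not given in the sources used here, so the share of each kind of transcript in the counts is unknown.

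The stem-loop marks where the usual histone mRNA ends. The search was for a perfect stem of 6 base pairs that begins GG, around a loop of 4 bases that begins TTT. It was found in the GENCODE v29 transcripts (GRCh38) of 24 of the 62 genes that have a transcript there. Of these 24, 14 were among the genes tested below. The 16-base element had 4 spellings. Its most frequent spelling was found in 13 genes, and the others in 4, 4 and 3. One gene of each spelling is printed, with the stem-loop in capitals and 5 bases on either side, 5′ to 3′ along the mRNA. The windows lie after the stop codon, at chr6:26216213-26216238 (minus strand), chr6:26158582-26158607 (plus), chr6:26285126-26285151 (minus) and chr1:149833027-149833052 (plus) in that order. An element was kept only if it lay within an exon of an annotated transcript and inside the gene model used for counting. Where none was kept, the transcript or the model may stop before the element, or the element may differ from the pattern searched. The 4 are shown because each of these genes differed between groups.
H2BC8: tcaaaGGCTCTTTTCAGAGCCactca
H2BC5: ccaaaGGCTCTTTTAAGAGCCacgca
H4C8: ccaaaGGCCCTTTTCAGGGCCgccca
H4C14: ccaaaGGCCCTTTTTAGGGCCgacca
The gene models of the table reach past this element to different extents. Of the 14 tested genes with a perfect stem-loop, 4 have a model that ends within 20 bases of it along the genome, among them H2BC8 at 18 bases and H2AC8 at 5. The other 10 have models that run over 100 bases further, among them H2BC21 at 1729, H4C8 at 7522 and H2AC6 at 14432 bases, introns included. Fragments counted for the longer models can therefore come from RNA that passed the stem-loop.

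Promoters of the family shared short motifs. In the RefSeq windows of 300 bases (GRCh38.p14, 250 before and 50 after the annotated start), which matched 60 of the 66 genes, CCAAT was present on either strand in 51 (85%), against 34.6% of 35116 promoters of the same length. TATAA on the gene's strand, beginning 20 to 40 bases before the start, was present in 46 (76.7%), against 3.91% of all promoters. The classes differed: CCAAT was present in all 6 H1, 15 H2A, 17 H2B and 10 H3 promoters but in 3 of 12 H4 promoters (25%). The window listed for H3C4 was left out, because it is that of H2AC7 and its start lies 2007 bases from the H3C4 model. Windows of H2A and H2B genes that start close together on opposite strands cover partly the same bases. The same CCAAT can therefore count for both genes, and the windows are not independent. These matches are a description of the letters in the windows. Windows of 2 genes that rose in starved control cells are printed 5′ to 3′ along the gene, with CCAAT or its reverse complement ATTGG and the TATAA in capitals. The H2BC8 window lies at chr6:26216639-26216938 on the minus strand, and overlaps that of H2AC8, which starts on the opposite strand. The H4C8 window lies at chr6:26285485-26285784 on the minus strand and holds no CCAAT.
H2BC8: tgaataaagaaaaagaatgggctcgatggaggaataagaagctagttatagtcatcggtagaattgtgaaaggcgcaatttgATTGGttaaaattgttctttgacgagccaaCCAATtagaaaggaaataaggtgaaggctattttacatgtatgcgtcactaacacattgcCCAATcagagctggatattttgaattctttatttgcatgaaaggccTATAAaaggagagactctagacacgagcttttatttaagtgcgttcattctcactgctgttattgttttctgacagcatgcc
H4C8: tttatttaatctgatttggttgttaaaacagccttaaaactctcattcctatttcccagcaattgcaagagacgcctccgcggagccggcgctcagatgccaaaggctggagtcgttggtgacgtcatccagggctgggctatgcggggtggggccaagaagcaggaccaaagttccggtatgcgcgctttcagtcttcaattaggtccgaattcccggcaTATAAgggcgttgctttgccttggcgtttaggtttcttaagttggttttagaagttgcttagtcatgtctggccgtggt

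The libraries held 21556273 to 25546615 counted fragments, and the family took 0.00917% of them. Levels are in CPM, the fragments of a gene relative to the library's total after scaling by TMM factors. OGDH itself was at 142 to 166 CPM in control libraries with glucose, 129 to 133 in starved control libraries, 36.3 to 45.1 in OGDH-depleted libraries with glucose and 32.3 to 33.9 in starved OGDH-depleted libraries. The mitochondrial share of counts ran from 3.06% to 14.6% and differed within groups. It was far from the rest of its group in replicate 2 of the fed control, replicate 3 of the starved control and replicate 3 of the starved OGDH-depleted libraries. Without these 3, the shares were 4.97% and 6.35% in fed control libraries and 14.4% and 13.2% in starved control libraries. In starved OGDH-depleted libraries they were then 3.06% and 5.12%. Fits without the 3 libraries therefore cannot tell this share apart from starvation of control cells, or from OGDH loss without glucose. Of 10 melanocyte markers 9 passed the filter on low counts, with SOX10 at 348 to 633 CPM as group means and MITF at 25.9 to 44.2. The pigment genes PMEL and MLANA were near 1 CPM, and TYR was at 0 in both groups with glucose. The 12 markers of blood, epithelial, endothelial and fibroblast cells summed to 295 to 387 CPM, except in starved control cells with 729 to 766, and keratin KRT18 held most of that sum. The T cell marker CD3E was at 0 in all groups but starved control cells, where its mean was 0.0514 CPM, and the part of other cells in the results was not tested.

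Of the 66 genes, 55 lie on chromosome 6 and 11 on chromosome 1 by the table's coordinates on hg38. The filter on low counts left 29 for testing: 3 of 6 H1, 8 of 16 H2A, 9 of 17 H2B, 5 of 13 H3 and 4 of 14 H4 genes. Of the 37 not tested, 5 were at 0 in all 12 libraries (H1-1, H2AC1, H2BC1, H3C11 and H4C13) and 32 had some counts. The gene models of the most abundant members, all counted over exons, lie at chr6:27146361-27146855 (H2BC12), chr6:26124145-26139116 (H2AC6) and chr6:26055740-26056470 (H1-2), and those of the largest increases described below at chr6:26216200-26216688 (H2BC8), chr6:26277609-26285638 (H4C8) and chr1:149851061-149851594 (H2AC19). Each tested gene reached the filter's cutoff (0.434 CPM on library totals) in libraries of more than 1 group. Some still depended on a given group for the 3 libraries needed. Without the starved control libraries 4 genes were short of 3 (H2BC9, H2AC13, H2AC15 and H3C12). Without the fed control libraries 4 were short (H1-3, H2BC9, H2AC13 and H2AC15), and without the starved OGDH-depleted libraries 2 (H2BC9 and H3C12). The untested gene with the highest total was H2BC13, with 103 fragments in all, and the tested gene with the lowest was H3C12, with 93. The H2BC13 fragments numbered 25, 7 and 21 in the control libraries with glucose, 6, 5 and 9 in the starved control libraries, 2, 2 and 8 in the OGDH-depleted libraries with glucose, and 8, 5 and 5 in the starved OGDH-depleted libraries. H2BC13 was lower in starved control libraries than in replicates 1 and 3 of the fed ones, while fed replicate 2 was also low.

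Counts were concentrated in a few genes. H2BC12, H2AC6 and H1-2 together held 56.2% of the family's fragments, and 15 of the 29 tested genes had a mean below 1 CPM. By class, H2B genes held 44.5%, H2A genes 23.6%, H1 genes 15.1%, H4 genes 8.85% and H3 genes 7.89%. Levels can be compared between genes only per length of the gene model: on that scale H2BC12 stood at 43.9 CPM per kb, H1-2 at 17.5, H2AC6 at 10.6, H2BC5 at 3.93, H2BC8 at 3.29 and H4C8 at 1.69, as means over the 12 libraries. Where transcripts end at the stem-loop inside a longer model, this scale understates the level.

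The summed level of all 66 genes, scaled by TMM factors, separated the 4 groups without overlap. It was 103.5, 83.0 and 99.4 CPM in the control libraries with glucose and 152.2, 146.4 and 152.2 in the starved control libraries. In OGDH-depleted cells it was 56.6, 51.0 and 56.8 CPM with glucose and 81.0, 72.7 and 71.5 without. With library totals alone in place of TMM factors, starved OGDH-depleted replicate 1 (86.1 CPM) lay above fed control replicate 2 (81.5), so these groups then overlapped. Starved control cells were highest and OGDH-depleted cells with glucose lowest. On the TMM scale starved OGDH-depleted cells lay below control cells with glucose, at means of 75.1 ± 5.17 against 95.3 ± 10.8 CPM (SD, n = 3). Without the 3 most abundant genes the sum was 36.6 ± 0.387 CPM in control cells with glucose, 74.1 ± 5.03 in starved control cells, 22.1 ± 0.604 in OGDH-depleted cells with glucose and 33.9 ± 0.954 in starved OGDH-depleted cells (SD, n = 3). In bulk RNA, fewer cells in S phase and less histone mRNA per cell cannot be told apart. The sum is a description and carries no test, because the genes were chosen with results known.

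**Figure D1:**
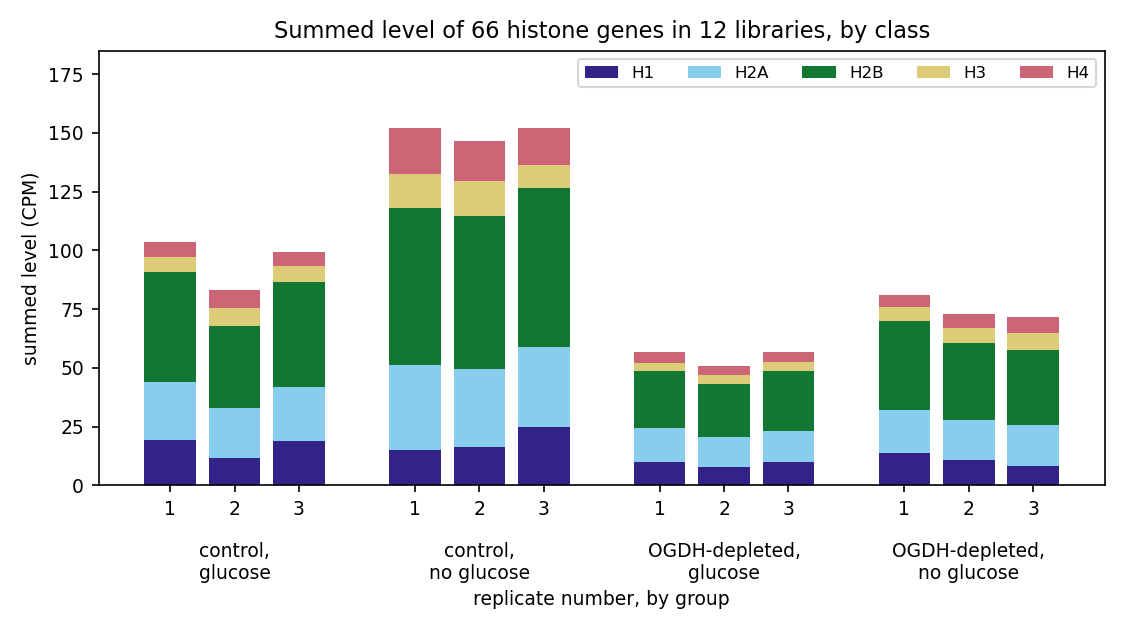
Summed level (CPM) of the 66 histone genes in each of the 12 libraries, stacked by class (H1, H2A, H2B, H3, H4). Starved control libraries reach 146.4 to 152.2 CPM, above all others, and OGDH-depleted libraries with glucose lie lowest at 51.0 to 56.8.

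The summed levels of the classes did not move by the same factor. As a percentage of control cells with glucose, the starved control mean was 112% for the H1 genes, 152% for the H2A genes, 157% for the H2B genes, 189% for the H3 genes and 263% for the H4 genes. In OGDH-depleted cells with glucose the same percentages were 55.1, 59.5, 57.2, 52.5 and 63.4, and in starved OGDH-depleted cells 66, 77.1, 80.6, 96.2 and 87.7. The H1 sum overlapped between starved and fed control libraries, at 15 to 24.8 against 11.8 to 19.5 CPM, and the H4 sum did not, at 15.7 to 19.9 against 6.07 to 7.66 CPM. These sums rest largely on single genes. The H4 sum went from a mean of 6.66 CPM in fed to 17.5 in starved control cells, and H4C8 alone went from 2.45 to 8.67. In fed control cells H1-2 held 15.5 of the 16.7 CPM of the H1 sum, and H2BC12 24.3 of the 42.2 CPM of the H2B sum. The percentages therefore do not describe the typical gene of a class, and no test compared the classes.

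Glucose starvation of control cells was accompanied by higher levels of many core histone genes. Each gene was tested with edgeR's quasi-likelihood test in 1 model of the 4 groups, with Benjamini-Hochberg adjustment over 18526 genes and a threshold of 0.05. In starved against fed control cells 11 of the 29 tested genes rose and 0 fell, where 17% of all tested genes rose and 17.5% fell. The median log2 fold change was 0.75 over the 29 genes and -0.02 over all tested genes. Those that rose were 3 of 8 H2A, 5 of 9 H2B, 1 of 5 H3 and 2 of 4 H4 genes, and 0 of 3 H1 genes. All 29 fold changes were above 0, or 26 of 29 with library totals alone, which put the median of all genes at -0.30 and that of the family at 0.48. At an unadjusted p under 0.05 the count was 14. DESeq2 called 11 up and 0 down. Each of the 4 groups enters 2 of the 4 comparisons between groups, so these are not independent of each other. Without the 3 libraries of outlying mitochondrial share 13 genes rose and 1, H2BC13, fell. The starved control libraries left in that fit all had higher mitochondrial shares than the fed ones left, so starvation and this share cannot be told apart there. With the mitochondrial share as a covariate the count was 18.

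H2BC8, an H2B gene, had the largest increase. It stood at 0.872, 0.995 and 0.921 CPM in the control libraries with glucose, 2.69, 4.14 and 3.58 in the starved control libraries, 0.60, 0.662 and 0.635 in the OGDH-depleted libraries with glucose and 1.43, 1.25 and 1.5 in the starved OGDH-depleted libraries. Starved libraries were higher than fed ones in both kinds of cells, and the 4 groups did not overlap. In control cells the log2 fold change was 1.90 ± 0.19 (SE; adjusted p = 1.7e-05). Its divergent partner H2AC8 rose by 1.35 ± 0.33 on the log2 scale (adjusted p = 0.00779).

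H4C8, an H4 gene, was the second. It stood at 1.82, 3.07 and 2.47 CPM in the control libraries with glucose, 8.75, 9.78 and 7.49 in the starved control libraries, 1.36, 1.59 and 1.01 in the OGDH-depleted libraries with glucose and 2.09, 2.29 and 2.23 in the starved OGDH-depleted libraries. The starved control libraries were far above the rest, and the starved OGDH-depleted libraries lay within the range of fed control cells. The log2 fold change in starved control cells was 1.82 ± 0.21 (adjusted p = 4.62e-05). Its promoter, printed above, is among the 9 H4 windows without CCAAT.

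H2AC19, an H2A gene on chromosome 1, was the third, from few fragments: 13, 5 and 12 in the fed control libraries and 28, 25 and 26 in the starved ones. Its levels were 0.515, 0.216 and 0.502 CPM in the control libraries with glucose, 1.57, 1.34 and 1.09 in the starved control libraries, 0.28, 0.486 and 0.187 in the OGDH-depleted libraries with glucose and 0.31, 0.292 and 0.182 in the starved OGDH-depleted libraries. Only the starved control libraries stood apart. The log2 fold change was 1.67 ± 0.35 (adjusted p = 0.00339). A near-identical copy, H2AC18, lies next to it, and fragments that match both were left out by the counting, so the level of each is uncertain.

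H2BC21, an H2B gene on chromosome 1 that is known to make polyadenylated mRNA as well, stood at 4.12, 4.89 and 4.48 CPM in the control libraries with glucose, 12.6, 12.5 and 9.05 in the starved control libraries, 3.2, 3.97 and 3.36 in the OGDH-depleted libraries with glucose and 5.43, 5.62 and 6.29 in the starved OGDH-depleted libraries. The 4 groups did not overlap. It rose by 1.34 ± 0.16 on the log2 scale in control cells (adjusted p = 6.13e-05). H2BC5, another H2B gene with a known polyadenylated form, stood at 3.73, 3.63 and 2.76 CPM in the control libraries with glucose, 6.28, 6.5 and 5.39 in the starved control libraries, 2.16, 1.24 and 1.57 in the OGDH-depleted libraries with glucose and 2.44, 2.33 and 2.6 in the starved OGDH-depleted libraries. Its groups did not overlap either, and it rose by 0.84 ± 0.19 (adjusted p = 0.00526).

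H2AC6, the most abundant H2A gene, stood at 19.7, 18 and 18.7 CPM in the control libraries with glucose, 28.5, 27 and 26.8 in the starved control libraries, 11.2, 9.89 and 10.8 in the OGDH-depleted libraries with glucose and 13.5, 13.4 and 14 in the starved OGDH-depleted libraries. The spread within groups was small and the 4 groups were separate. It rose by 0.55 ± 0.09 on the log2 scale (adjusted p = 0.000763), and with library totals alone in place of TMM factors this was 0.26 (adjusted p = 0.0618). H2BC11, an H2B gene, stood at 3.25, 2.25 and 3.18 CPM in the control libraries with glucose, 3.7, 4.57 and 5.26 in the starved control libraries, 1.2, 1.59 and 1.68 in the OGDH-depleted libraries with glucose and 1.43, 1.25 and 0.912 in the starved OGDH-depleted libraries. Starved control libraries were above fed ones, and OGDH-depleted libraries were lowest with and without glucose. Its increase of 0.64 ± 0.21 (adjusted p = 0.0359) lost its call in 12 of the alternatives, among them without control replicate 2 or 3 and without starved control replicate 2 or 3.

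H4C14, an H4 gene on chromosome 1, stood at 1.03, 0.908 and 1.26 CPM in the control libraries with glucose, 5.44, 1.99 and 1.89 in the starved control libraries, 0.961, 0.574 and 1.19 in the OGDH-depleted libraries with glucose and 0.543, 0.833 and 1.05 in the starved OGDH-depleted libraries. Starved control replicate 1 was well above the other 2 of its group. The log2 fold change was 1.52 ± 0.42 (adjusted p = 0.0155), and without that library it was 0.86 (adjusted p = 0.0667). Of the 100-base windows of its transcripts, 94.9% are shared with H4C15, so its level is uncertain. The other 2 genes that rose were H3C10, an H3 gene, by 1.56 ± 0.34, and H2BC18, an H2B gene, by 1.02 ± 0.15 on the log2 scale.

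The other 3 of the 8 most abundant genes did not pass the test in starved control cells. H2BC12, an H2B gene and the most abundant of the family, stood at 28.5, 17.7 and 26.8 CPM in the control libraries with glucose, 32.3, 28 and 34.2 in the starved control libraries, 14.1, 12.3 and 14.8 in the OGDH-depleted libraries with glucose and 20.8, 16.4 and 15 in the starved OGDH-depleted libraries. Fed and starved control libraries overlapped, control replicate 2 being low, and the log2 fold change was 0.37 ± 0.18 (adjusted p = 0.139). H1-2, the most abundant linker histone gene, stood at 18.3, 11 and 17.2 CPM in the control libraries with glucose, 14, 14.9 and 22.8 in the starved control libraries, 9.21, 7.33 and 8.55 in the OGDH-depleted libraries with glucose and 12.6, 10.04 and 7.66 in the starved OGDH-depleted libraries. Control libraries with and without glucose overlapped, and the log2 fold change was 0.16 ± 0.25 (adjusted p = 0.663). H3C6, an H3 gene, stood at 2.42, 2.9 and 3.06 CPM in the control libraries with glucose, 3.87, 5.27 and 3.07 in the starved control libraries, 1.12, 1.37 and 1.38 in the OGDH-depleted libraries with glucose and 1.86, 2.04 and 2.28 in the starved OGDH-depleted libraries. Its 4 groups were separate, the closest being fed and starved control libraries, and the log2 fold change of 0.54 ± 0.20 missed the threshold (adjusted p = 0.0576).

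**Figure D2:**
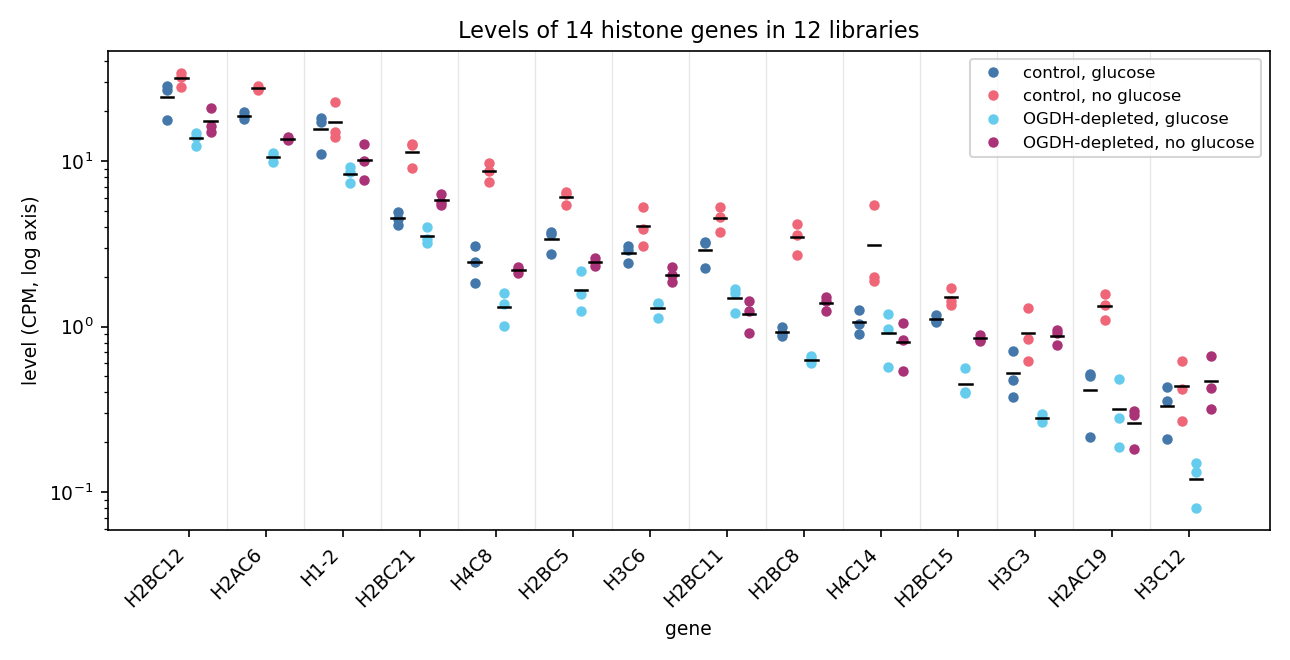
Levels (CPM, log axis) of 14 histone genes in each library, coloured by group, with bars at the group means. The genes are the 8 of highest mean level and those with the largest called changes, and H2BC8 and H4C8 stand highest in starved control libraries, at 2.69 to 4.14 and 7.49 to 9.78 CPM.

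Starvation of OGDH-depleted cells also went with higher levels of some of the genes. There 7 of the 29 genes rose and 0 fell (2.42% of all tested genes rose and 4.76% fell), with a median log2 fold change of 0.39 against 0.02 over all tested genes. At an unadjusted p under 0.05 the count was 12, and DESeq2 called 8 up and 0 down. The genes that rose were H3C12, H3C3, H2BC8, H2BC15, H2BC18, H2BC21 and H2AC6. The count rested on single libraries: leaving out replicates 1, 2 and 3 of the OGDH-depleted cells with glucose in turn gave 2, 3 and 1, and leaving out those of the starved OGDH-depleted cells gave 4, 1 and 3. Without the 3 outlying libraries it was 11, with the mitochondrial share as a covariate 13, and with only the groups compared in the model 4. H2BC8 kept its call in all alternatives, at 1.14 ± 0.21 on the log2 scale (adjusted p = 0.00782).

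The 2 largest of these increases were in H3 genes of very low count. H3C12 stood at 0.357, 0.433 and 0.209 CPM in the control libraries with glucose, 0.617, 0.269 and 0.421 in the starved control libraries, 0.0801, 0.132 and 0.149 in the OGDH-depleted libraries with glucose and 0.427, 0.666 and 0.319 in the starved OGDH-depleted libraries. The OGDH-depleted libraries with glucose held 2, 3 and 4 of its fragments and the starved ones 11, 16 and 7, which gave a log2 fold change of 1.92 ± 0.47 (adjusted p = 0.0312). H3C12 would have been short of the 3 libraries needed by the low-count filter without either starved group. It was thus tested partly because of its high values there. Of its 100-base windows 36.5% are shared with H2AC17, whose gene model overlaps its own, so the level of H3C12 is uncertain. H3C3 stood at 0.714, 0.476 and 0.377 CPM in the control libraries with glucose, 0.617, 1.29 and 0.842 in the starved control libraries, 0.28, 0.265 and 0.299 in the OGDH-depleted libraries with glucose and 0.776, 0.916 and 0.958 in the starved OGDH-depleted libraries. Its lowest group was OGDH-depleted cells with glucose, and the starved ones lay within the range of starved control cells, with a log2 fold change of 1.62 ± 0.33 (adjusted p = 0.0134). H2BC21 rose by 0.72 ± 0.16 (adjusted p = 0.0209) and H2AC6 by 0.36 ± 0.09 (adjusted p = 0.0393).

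Loss of OGDH with glucose present went with lower histone mRNA. In OGDH-depleted against control cells 0 of the 29 genes rose and 6 fell, where 1.59% of all tested genes rose and 1.45% fell. The median log2 fold change was -0.82 against -0.01 over all tested genes, and 27 of the 29 values were below 0. At an unadjusted p under 0.05 the count was 16, and DESeq2, which gave an adjusted p for 18 of the genes, called 0 up and 8 down. Those that fell were 1 of 8 H2A, 4 of 9 H2B and 1 of 5 H3 genes, and 0 of the H1 and H4 genes. The count was 3 without control replicate 3, and 2 without OGDH-depleted replicate 1 and 2 without OGDH-depleted replicate 2. With only the groups compared in the model it was 2, without the 3 outlying libraries 9, and with the mitochondrial share as a covariate 11.

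H2BC15, an H2B gene, had the largest decrease among the genes that passed. It stood at 1.07, 1.17 and 1.09 CPM in the control libraries with glucose, 1.35, 1.72 and 1.43 in the starved control libraries, 0.40, 0.397 and 0.56 in the OGDH-depleted libraries with glucose and 0.892, 0.833 and 0.821 in the starved OGDH-depleted libraries. OGDH-depleted libraries were below control libraries with and without glucose, and the 4 groups were separate. The log2 fold change with glucose was -1.27 ± 0.21 (adjusted p = 0.00754). H3C12 had a value further from 0, -1.42 ± 0.50, that missed the threshold (adjusted p = 0.173). H3C6 changed by -1.11 ± 0.22 (adjusted p = 0.0201) and H2BC5 by -1.02 ± 0.20 (adjusted p = 0.0221). The other 3 were H2BC11 at -0.96 ± 0.23 (adjusted p = 0.0472), H2BC12 at -0.83 ± 0.19 (adjusted p = 0.0369) and H2AC6 at -0.83 ± 0.09 (adjusted p = 0.00101). H2AC6 alone of the 6 passed in all alternatives. H1-2 had a value of similar size, -0.89 ± 0.25, that missed the threshold (adjusted p = 0.0926).

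Without glucose the difference between OGDH-depleted and control cells covered most of the tested genes. Of the 29 genes 0 rose and 18 fell (13.7% of all tested genes rose and 15% fell), with a median log2 fold change of -0.98 against 0.00 over all tested genes. At an unadjusted p under 0.05 the count was 22, and DESeq2 called 0 up and 18 down. Those that fell were 1 of 3 H1, 5 of 8 H2A, 7 of 9 H2B, 2 of 5 H3 and 3 of 4 H4 genes. H2AC15, among these H2A genes, would have been short of the 3 libraries needed by the filter without either control group. The count lay between 14 and 20 without each library in turn and was 16 without the 3 outlying ones. The comparison uses the starved control libraries that also enter the first comparison, so high levels there weigh on both.

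The largest decreases were in H2AC19, H4C8 and H4C14, whose values per library are given above. H2AC19 changed by -2.31 ± 0.38 on the log2 scale (adjusted p = 0.000883). H4C8 changed by -1.97 ± 0.21 (adjusted p = 4e-05) and H4C14 by -1.93 ± 0.44 (adjusted p = 0.00631). In each of the 3, the highest starved OGDH-depleted library lay below the lowest starved control library. Among the abundant genes, H2BC11 changed by -1.90 ± 0.23 (adjusted p = 0.00011), H2BC5 by -1.30 ± 0.20 (adjusted p = 5e-04), H2AC6 by -1.01 ± 0.09 (adjusted p = 1.42e-05), H2BC21 by -0.98 ± 0.15 (adjusted p = 0.000716), H3C6 by -0.98 ± 0.21 (adjusted p = 0.00418) and H2BC12 by -0.86 ± 0.18 (adjusted p = 0.0048). H1-2, the 1 linker histone gene called, changed by -0.77 ± 0.25 (adjusted p = 0.0376) and lost its call without any 1 of 7 libraries, which were control replicate 3, starved control replicate 3, OGDH-depleted replicates 1, 2 and 3 and starved OGDH-depleted replicates 2 and 3.

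**Figure D3:**
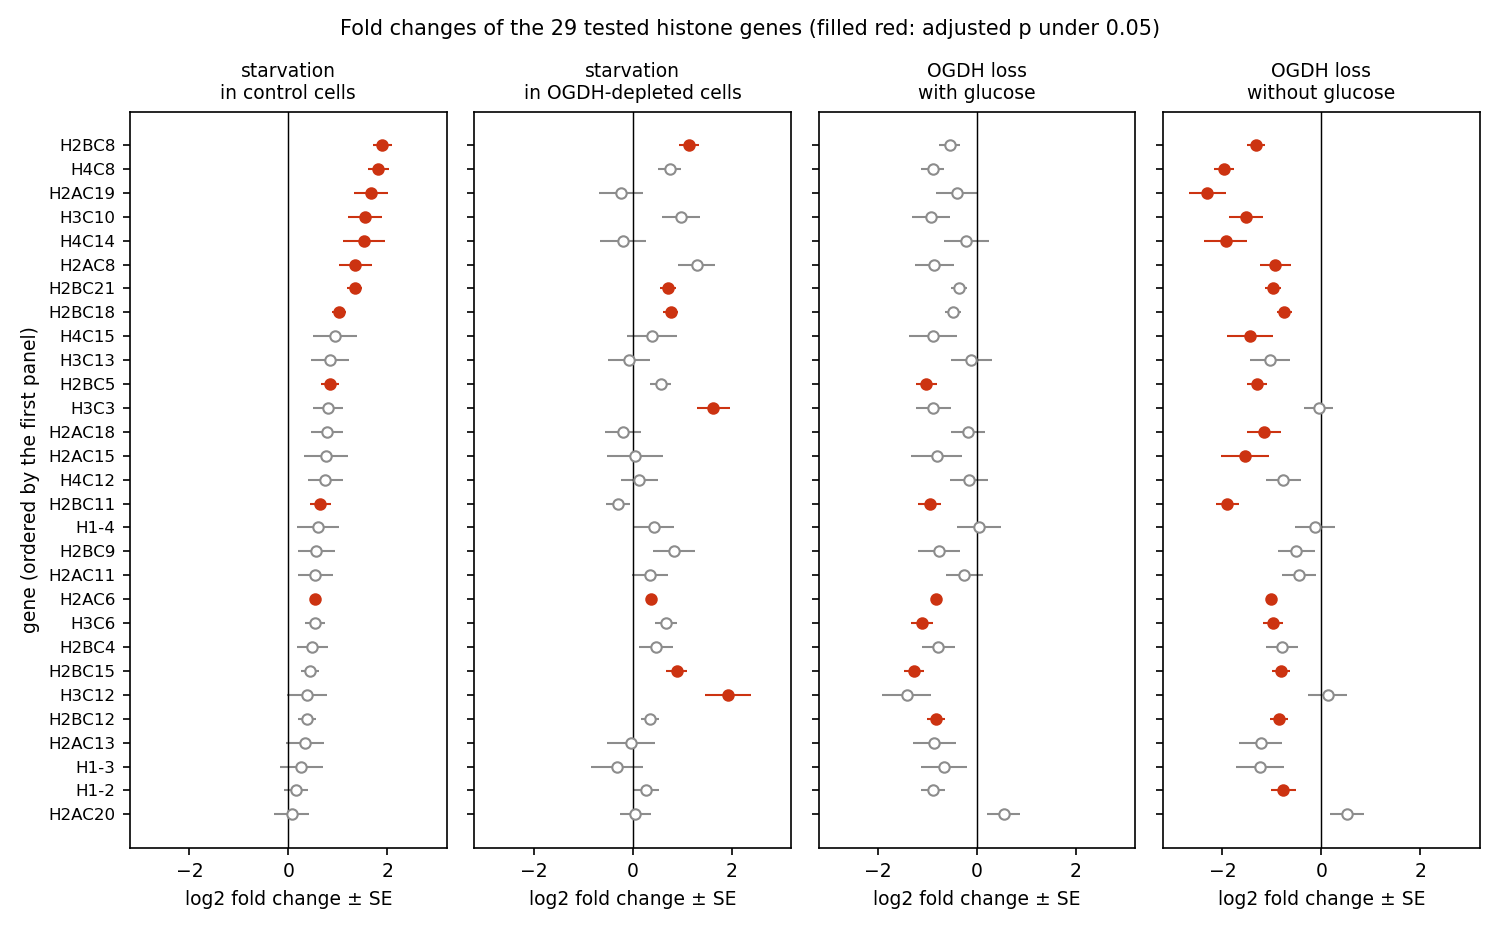
Log2 fold changes with SE of the 29 tested histone genes in 4 comparisons, ordered by the change in starved control cells, with genes at an adjusted p under 0.05 filled in red. The 11 called genes of the first panel and the 7 of the second lie above 0, and the 6 of the third and 18 of the fourth below 0.

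The difference between the 2 starvation responses was tested as the interaction, the response in OGDH-depleted cells minus that in control cells. Of the 29 genes 0 were called higher and 2 lower, a share no larger than that of all tested genes, of which 8.3% were higher and 8.95% lower. The median was -0.28 against 0.01 over all tested genes, the count at an unadjusted p under 0.05 was 7, and DESeq2 called 0 higher and 3 lower. The 2 genes were H2AC19 at -1.90 ± 0.58 (adjusted p = 0.0424) and H4C8 at -1.07 ± 0.31 (adjusted p = 0.0323). The count fell to 0 without control replicate 3, starved control replicate 2, OGDH-depleted replicate 1 or 2, or any 1 of the starved OGDH-depleted replicates. It was 1 without control replicate 1 or starved control replicate 1 and 4 without starved control replicate 3. Without the 3 outlying libraries 2 genes were higher and 7 lower, and with the mitochondrial share as a covariate 0 were higher and 6 lower. H2BC13 was called higher without control replicate 2 alone (2.11, adjusted p = 0.0398). The other 27 genes did not pass the test, and the median SE of the interaction over the family was 0.51.

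The tested genes fall into those with longer and shorter gene models. Of the 29 tested genes, 10 have a model of over 1000 bases in the table and 19 have one of 1000 bases or fewer. In starved control cells 7 of the 10 long-model genes and 4 of the 19 others rose, with median log2 fold changes of 0.98 and 0.60, where 17% of all tested genes rose. In OGDH-depleted cells without glucose 10 of the 10 and 8 of the 19 fell, with medians of -1.23 and -0.86, where 15% of all tested genes fell. Of the 15 tested genes below 1 CPM, 14 have short models and 1, H2BC15, has a long one, so the counts of calls compare genes of unequal depth. No test compared the long and short models. The summed level of long-model genes was 73.1 ± 6.61 CPM in starved against 38.9 ± 1.06 in fed control cells (188%), and that of the others was 77.2 ± 8.37 against 56.3 ± 11.9 (137%). Abundant genes weigh heavily on both sums. Of the short models, H2BC12 had means of 31.5 CPM in starved and 24.3 in fed control cells, and H1-2 had 17.2 and 15.5. Of the long models, H2AC6 had 27.4 and 18.8. In OGDH-depleted cells with glucose both sums were near the same percentage of control cells, 58.3 and 56.9. Whether the ends of the transcripts differed between groups was not tested. H2BC8, which had the largest increase in starved control cells, has a model that ends 18 bases after its stem-loop. An annotated transcript of H2BC8 runs 1059 bases past the stem-loop, and which transcripts its counts come from was not tested.

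Of the 6 genes on a list of members known to make polyadenylated mRNA as well (H1-2, H2AC6, H2BC4, H2BC5, H2BC12 and H2BC21), 3 rose in starved control cells (17% of all tested genes) and 5 fell with OGDH loss without glucose (15% of all tested genes). With OGDH loss and glucose 3 of the 6 fell (1.45% of all), and in starved OGDH-depleted cells 2 rose (2.42% of all). A list of 18 other RNAs that lack a poly-A tail gave 3 tested genes, the 7SL RNA RN7SL1, the RNase MRP RNA RMRP and the U3 snoRNA SNORD3A. The list summed to 2.29 to 11.2 CPM in fed control libraries, a wide spread within 1 group. In starved control cells their log2 fold changes were -0.70 ± 0.66, -1.18 ± 1.02 and 0.55 ± 0.29, and 0 of the 3 passed the test. SNORD3A passed once, in starved OGDH-depleted cells, at 1.19 ± 0.30 (adjusted p = 0.0344).

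Many H2A and H2B genes sit head to head and share a promoter region. There were 11 such pairs with starts 170 to 251 bases apart, of which H2AC1 and H2BC1 were at 0 in all libraries. Per kb of gene model, H2BC12 stood 116 times above its partner H2AC12, and H2BC21 3.33 times above H2AC20, the H2B gene being higher in all 12 libraries in both pairs. The order was opposite for H2AC6, which stood 6.12 times above H2BC4 in all 12 libraries. For H2AC15 and H2BC15 the order depends on the scale: H2BC15 had more fragments (265 against 100), but per kb of its model of 4265 bases it lay below H2AC15. H2BC8 exceeded H2AC8 by 1.82 times in all 12 libraries and H2BC11 exceeded H2AC11 by 1.61 times in 9. H2BC13 and H2AC13 were close, with H2BC13 higher in 5 libraries. In H2AC8 and H2BC8 both genes rose in starved control cells, whereas of the pair H2AC20 and H2BC21 H2BC21 was the 1 called and H2AC20 had a log2 fold change of 0.07.

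**Figure D4:**
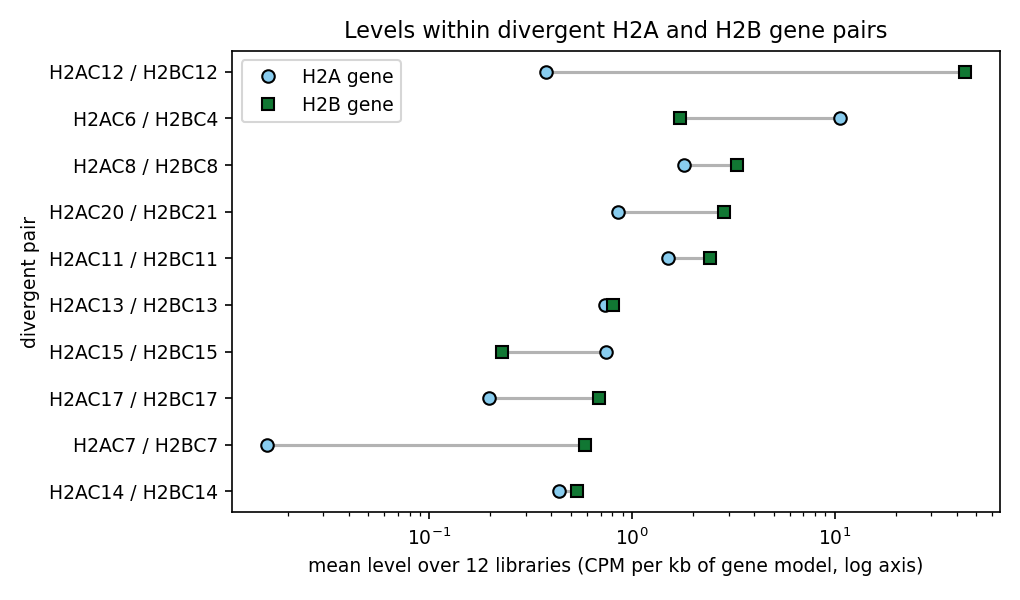
Mean level over 12 libraries (CPM per kb of gene model, log axis) of the H2A gene (circle) and H2B gene (square) of each of 10 divergent pairs with counts. H2BC12 stands 116 times above H2AC12, while H2AC6 stands 6.12 times above H2BC4.

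Genes that copy DNA in S phase were lower where the histone family was higher in starved control cells. A list of 24 S phase and replication genes, all tested, had 18 that fell and 1 that rose in starved control cells, with a median of -0.73, where 17.5% of all tested genes fell and 17% rose. GINS1 and GINS4, subunits of the replicative helicase complex, changed by -1.61 ± 0.17 and -1.28 ± 0.13, and CDC6, which loads the helicase onto origins, rose by 0.43 ± 0.08. With OGDH loss and glucose 9 fell and 0 rose (1.45% and 1.59% of all tested genes), among them GINS2 at -0.61 ± 0.10. Without glucose OGDH-depleted cells had 7 higher, among them GINS1 at 1.31 ± 0.17 and MCM6 at 1.22 ± 0.09, and 1 lower, CDC6 at -0.98 ± 0.08, against 13.7% and 15% of all tested genes. In starved OGDH-depleted cells 0 of the 24 passed in edgeR's test, and 2 had an unadjusted p under 0.05. For the interaction, where 8.3% of all tested genes were higher, 12 of the 24 were higher, led by GINS1 at 1.58 ± 0.24 and MCM6 at 1.13 ± 0.12, and CDC6 was lower at -0.55 ± 0.11.

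Histone genes outside the replication-dependent set were described as a list of 11. Of these 5 fell and 0 rose in starved control cells (17.5% and 17% of all tested genes), with a median of -0.55, among them the centromeric H3 variant CENPA at -1.13 ± 0.16. Their sum went from 1854 ± 115 CPM in fed to 1410 ± 77.1 in starved control cells, while that of the replication-dependent genes went from 95.3 ± 10.8 to 150.3 ± 3.33. In OGDH-depleted cells 1 fell with glucose (1.45% of all). Without glucose 5 were higher than in control cells (13.7% of all), led by H1-10 at 1.19 ± 0.12 and CENPA at 0.95 ± 0.16. The interaction had 4 higher (8.3% of all), among them H1-10 at 1.13 ± 0.17.

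Of 11 histone chaperones, which carry histones to DNA, 5 fell and 0 rose in starved control cells, with a median of -0.29, where 17.5% of all tested genes fell and 17% rose. ASF1B, which hands H3 and H4 to the assembly factor, changed by -1.70 ± 0.12, and CHAF1A, the large subunit of that factor, by -1.0 ± 0.11. Without glucose 5 were higher in OGDH-depleted cells (13.7% of all tested genes), led by ASF1B at 0.99 ± 0.12 and CABIN1 at 0.64 ± 0.11. With glucose ASF1B was lower at -0.56 ± 0.12 and CABIN1 higher at 0.57 ± 0.11 (1.45% of all were lower and 1.59% higher), and in starved OGDH-depleted cells UBN1 was lower at -0.52 ± 0.12 (4.76% of all). For the interaction 4 were higher (8.3% of all), led by ASF1B at 1.55 ± 0.17 and CHAF1B at 0.83 ± 0.21.

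Of 21 factors of histone mRNA synthesis, processing and decay 3 rose and 5 fell in starved control cells, shares near those of all tested genes (17% and 17.5%), and the median was -0.11. With OGDH loss without glucose 2 were higher and 2 lower (13.7% and 15% of all), and the interaction had 2 higher and 1 lower (8.3% and 8.95%). CCNE1, the cyclin whose kinase acts on the histone gene activator NPAT, rose by 1.07 ± 0.09, and TUT7, a terminal uridylyl transferase of histone mRNA decay, by 0.92 ± 0.26. LSM10, a subunit of the U7 small nuclear ribonucleoprotein, changed by -0.95 ± 0.30 and the octamer-binding factor POU2F1 by -0.80 ± 0.18. Fed and starved control libraries overlapped for TUT7, at 34.6 to 65.5 against 64.5 to 102.8 CPM. They also overlapped for LSM10, at 20.5 to 43.5 against 13.3 to 24.4 CPM. In both genes the overlap was between fed replicate 2 and starved replicate 3, which had outlying mitochondrial shares. CCNE1 stood at 33.7, 32.4 and 33.5 CPM in fed and 65.7, 71.6 and 72.0 in starved control libraries, and at 29.3 to 33.9 in the OGDH-depleted libraries. Its interaction was -1.10 ± 0.13 and its difference with OGDH loss without glucose -1.17 ± 0.09. In starved OGDH-depleted cells ZNF473, a zinc finger protein that binds the U7 particle, rose by 0.60 ± 0.11 as 1 of 21 (2.42% of all tested genes rose). ZNF473 was not particular to these cells, as it stood at 48.2 to 55.8 CPM in starved against 26.3 to 31.0 in fed control libraries. With OGDH loss and glucose 1 of 21 fell (1.45% of all), CCNE2 at -0.91 ± 0.18. Without glucose CCNE2 was lower at -0.70 ± 0.18, POU2F1 higher at 0.66 ± 0.18 and CDK2, the kinase partner of both cyclins, higher at 0.44 ± 0.09. POU2F1 at 1.06 ± 0.25 and CDK2 at 0.60 ± 0.12 were the 2 with a higher interaction.

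**Figure D5:**
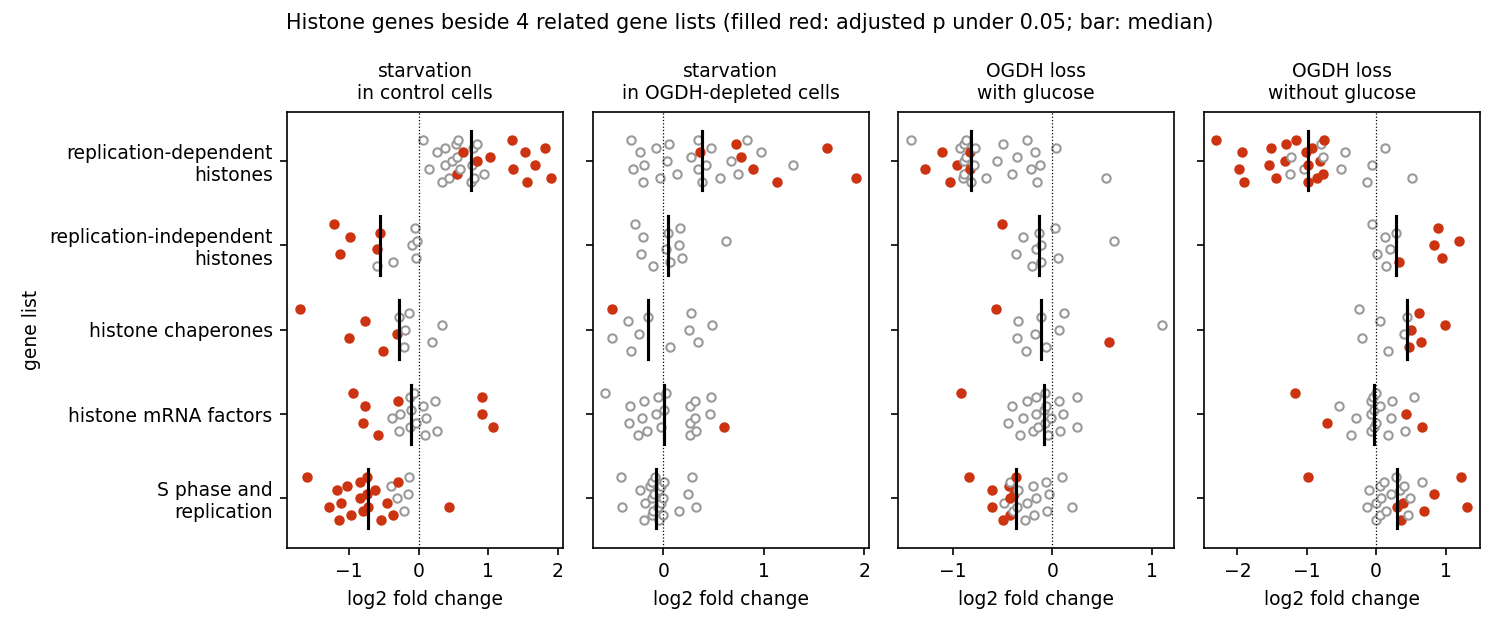
Log2 fold changes of the 29 tested histone genes and of 4 related gene lists in 4 comparisons, with genes at an adjusted p under 0.05 in red and a bar at each median. In starved control cells the family has a median of 0.75 and the S phase list one of -0.73.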

How the data were processed

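Per the file headers, the authors counted fragments per gene name with featureCounts 2.0.1, as pairs over exons, without strand, leaving out fragments that map to several places or overlap several genes. Near-identical histone copies and members with overlapping models therefore lose fragments. Over 10% of the 100-base transcript windows of 11 members are shared with another member. Among the 11 are H3C12 and H2AC17, whose models overlap. Only the 62 members with a GENCODE transcript were compared, which leaves out H2AC18 and H2AC19. Subread and hg38 are named in the submitters' processing notes, and the aligner is not given in the sources used here. The deposited counts were tested with edgeR 4.0.16 (R 4.3.3): filterByExpr (minimum count 10, minimum total count 15) kept 18526 of 61209 gene names, TMM scaling was used, and the quasi-likelihood test ran on 1 model with a mean for each of 4 groups of 3 libraries. Adjustment was by Benjamini-Hochberg over all tested genes. Each ± after a fold change is an SE derived from the test, the absolute log2 fold change divided by the square root of the F value. The p-values come from the test itself and for some genes are larger than this SE implies. Fragment totals were 21556273 to 25546615 per library, and in starved control cells the members' median SE was 0.33. The members and gene lists were chosen with earlier results of these data known. Genes named are the 8 members of highest mean CPM, the 3 largest called changes per direction and comparison, and the 2 largest per direction in each list; other members were named after their values were seen. Some genes that this rule takes are not reported here. Alternatives were DESeq2 1.42.0, other scalings and filters, fewer groups or libraries, a replicate block and the mitochondrial share as a covariate. The test was also tried on simulated data. No library repeated another: replicates differed by a chi-square of 3.77 or more for each degree of freedom.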

Additional observations from a re-analysis of the deposited data

Results flagged for a closer look

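The responses of H2AC19 and H4C8 to starvation differed between OGDH-depleted and control cells by the test of the difference itself. These were 2 of 29 tested members, a share no larger than the 8.95% of all tested genes called lower. For H2AC19 the difference was -1.90 on the log2 scale (edgeR adjusted p = 0.0424), from 1.67 in control and -0.23 in OGDH-depleted cells. For H4C8 it was -1.07 (adjusted p = 0.0323), from 1.82 in control and 0.75 in OGDH-depleted cells. H2AC19 lost its call in 12 of 22 alternatives, where its adjusted p reached 0.142, and H4C8 in 10 of 22, where it reached 0.0954. In the OGDH-depleted libraries H2AC19 had 4 to 11 fragments each.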

How the results depend on the processing

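Of the 44 calls of a member in a comparison, 21 passed under all alternatives in which they were tested, 23 missed the threshold in at least 1, and 0 changed direction. Leaving out each library in turn gave 11 to 13 members called in starved control cells, 1 to 10 in starved OGDH-depleted cells, 2 to 6 for OGDH loss with glucose, 14 to 20 for OGDH loss without glucose and 0 to 4 for the interaction. With the mitochondrial share as a covariate the counts were 18, 13, 11, 23 and 6 in that order. With only the groups compared in the model they were 4 for starved OGDH-depleted cells and 2 for OGDH loss with glucose. Without the 3 libraries of outlying mitochondrial share they were 14 (13 up, 1 down), 11, 9, 16 and 9 (2 up, 7 down). In the comparisons that use starved control cells, that fit cannot tell the groups apart from the mitochondrial share. The 1 down was H2BC13 (-1.62, adjusted p = 0.0105), which also passed without control replicate 2 alone (-1.49, adjusted p = 0.0115), and the 2 up were H2BC13 (2.28) and H1-2 (0.72). Without scaling factors, an alternative chosen after seeing the data, the interaction had 1 call and the median gene moved by -0.30 in starved control cells and to 0.25 for OGDH loss without glucose, where the family's medians were 0.48 and -0.72. With no filter on low counts H2BC14 was called higher for the interaction (3.27). With a replicate block the counts were 10, 4, 5, 15 and 1. The numbers do not pair the libraries: same-number correlations of deviations ran from -0.84 to 0.81, and 4 of 12 libraries correlated best with their own number. Depth limits the 37 untested members and the 15 tested ones below 1 CPM.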
